A study of Sus scrofa with 63 samples.

Results

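Genes of fatty acid and bile acid uptake were followed in the jejunum of pig fetuses in late gestation. The set was defined as 10 genes, FABP1, FABP2, FABP6, CD36, SLC27A4, SLC10A2, NR1H4, FGF19, SLC51A and SLC51B, and its probes were all those that the array files named after one of them, in any letter case. By this rule 20 of 60305 probes on the array were found, and they measured 6 of the 10 genes. SLC27A4, FGF19, SLC51A and SLC51B had no probe under these names. SLC51A and SLC51B were reached by 4 further probes, through an older gene name or a RefSeq accession, and are given apart from the 6 genes. SLC27A4 and FGF19 were not analysed here.

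RNA from the jejunum of 63 male fetuses was hybridised to one-colour arrays, 1 fetus per array. The fetuses were purebred Large White (LW, labelled LWLW) or Meishan (MS, labelled MSMS), or crosses of an LW sire with an MS sow (LWMS) or of an MS sire with an LW sow (MSLW). Meishan is a Chinese breed whose piglets are known to be more mature at birth than those of Large White. At day 90 of gestation there were 9 LW, 6 MS, 9 LWMS and 8 MSLW fetuses, and at day 110 there were 9 LW, 7 MS, 9 LWMS and 6 MSLW fetuses. No group received a treatment. Sows were inseminated with mixed semen of both breeds, so a purebred and a crossbred fetus could share a sow. Litter mates could not be identified from the labels used here. The study compared ages and genotypes to describe how the intestine matures before birth.

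In the absorptive cells of the small intestine, long-chain fatty acids enter with the help of membrane proteins such as CD36 and SLC27A4 and are carried inside the cell by the fatty acid binding proteins FABP1 and FABP2. Bile acids enter at the brush border through SLC10A2, which in the adult works mainly in the ileum. They are bound in the cell by FABP6 and leave toward the blood through the heterodimer of SLC51A and SLC51B. NR1H4, also called FXR, is the nuclear receptor that senses bile acids, and it induces FGF19, a hormone that represses bile acid synthesis in the liver.

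Each probe was an oligonucleotide of 60 bases, and the sequences are those of the array files. The 3 probes below are among the 4 that each gave the FABP1 result, and they are shown because they overlap. Capitals mark the longest run that all 3 share, of 16 bases.

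FABP1 O10072: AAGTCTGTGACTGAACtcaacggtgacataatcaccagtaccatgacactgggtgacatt
FABP1 A_72_P753970: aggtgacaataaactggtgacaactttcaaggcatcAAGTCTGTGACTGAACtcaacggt
FABP1 A_72_P761584: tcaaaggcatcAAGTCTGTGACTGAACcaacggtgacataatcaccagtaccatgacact

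The fourth FABP1 probe shared at most 6 bases in a row with the others, so FABP1 was also read at a separate stretch. One probe each is shown for FABP2, whose low values at day 110 are described below, for NR1H4, the gene called for the sire, and for SLC10A2, whose probe came from another species. The probes of each of these genes shared at most 6 bases in a row. The NR1H4 probe shown is not its brightest.

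FABP2 A_72_P442769: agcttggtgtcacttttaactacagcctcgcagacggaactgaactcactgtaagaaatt
NR1H4 A_72_P026816: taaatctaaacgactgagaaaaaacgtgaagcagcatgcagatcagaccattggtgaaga
SLC10A2 O6619: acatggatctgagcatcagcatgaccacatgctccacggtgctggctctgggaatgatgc

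The 3 FABP6 probes shared runs of 53, 54 and 59 of 60 bases and are in effect 1 measurement. The 5 CD36 probes shared at most 7 bases in a row, and the 3 NR1H4 probes at most 6.

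All levels below are log2 signals from which the 75th percentile of that array was subtracted, so a difference of 1 is a doubling, and levels are compared only for the same probe. Testing required a signal well above background in 75% or more of the fetuses of some group. It covered 40515 of 60305 probes and 19 of the 20 probes of the set, which left every one of the 6 genes with a tested probe. Each gene was represented by its brightest tested probe, and the others were read beside it. Differences were tested with limma and p-values were adjusted over all 40515 probes. They measure the spread between fetuses, with litter mates taken as independent and the spread of a probe taken as the same in all 8 groups. Per array, the share of probes that stood well above background was between 51.2 and 87.6% (median 66.7%). In bulk tissue, fewer cells of a type and less RNA per cell cannot be told apart.

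Of the 6 genes, 3 differed between the 8 groups by the F test of limma at an adjusted p under 0.01, FABP1 (5.13e-17), NR1H4 (0.000553) and CD36 (0.000633), and 11 of the 19 probes did, where 28.7% of all probes were called. FABP6 (adjusted p = 0.0171) passed this F test without LWMS fetus 874 (0.00248) or without MS fetus 632 (0.00777). Between day 90 and day 110, over the mean of the 4 genotypes, only FABP1 was called (adjusted p no higher than 0.01 and a log2 difference of 0.5 or more), against 13.8% of all probes. Its 4 probes all rose. The median difference with age over the 6 genes was 0.04, beside -0.02 over all probes, and the median of the absolute differences was 0.31 beside 0.20.

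FABP1, the fatty acid binding protein that is abundant in liver and small intestine, rose in every genotype. At day 90 its level had a low of 4.12, a median of 4.99 and a high of 5.77 in LW, 4.58, 5.01 and 5.52 in MS, 4.30, 5.03 and 5.77 in LWMS, and 4.36, 4.998 and 5.19 in MSLW. At day 110 the low, median and high were 6.71, 7.78 and 8.82 in LW, 4.09, 7.21 and 7.65 in MS, 7.54, 7.98 and 8.63 in LWMS, and 6.17, 7.56 and 8.77 in MSLW. Of the 31 fetuses at day 110, 30 lay above the highest of the 32 fetuses at day 90, and the exception was MS fetus 632, at 4.09, which lay below every fetus of day 90. Over the 4 genotypes the level was 2.55 ± 0.16 (SE) higher at day 110, or 5.86-fold (adjusted p = 1.77e-19). The other 3 probes gave 2.59 to 2.65. The 4 groups at day 90 had means within 0.15 of one another, less than the spread within any of them. At day 110 the order of the means was LWMS, LW, MSLW and MS, and no neighbours in it differed by more than the larger SD of the pair.

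Within genotypes, FABP1 rose by 2.67 ± 0.30 in LW (adjusted p = 2.44e-09), where 4.76% of all probes were called. In MS it rose by 1.79 ± 0.36 (adjusted p = 0.000505), where 3.12% were called, in LWMS by 3.12 ± 0.30 (adjusted p = 9.08e-12), where 9.86% were, and in MSLW by 2.62 ± 0.35 (adjusted p = 2.23e-07), where 5.43% were. It was the 1 gene of 6 called in LW, MS and MSLW, and 1 of 2 in LWMS. The rise in MS was 2.25 ± 0.30 (adjusted p = 2.35e-07) without fetus 632, and it missed the threshold when the purebred fetuses were fitted alone (1.79 ± 0.42, adjusted p = 0.0102). The test of whether the change with age differed among genotypes did not pass for FABP1 (adjusted p = 0.678), nor for any of the other 5 genes (0.591 to 0.986), and 0.0913% of all probes passed it. Within each of the 8 slides, FABP1 was higher at day 110, by 1.97 to 3.21.

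**Figure D1:**
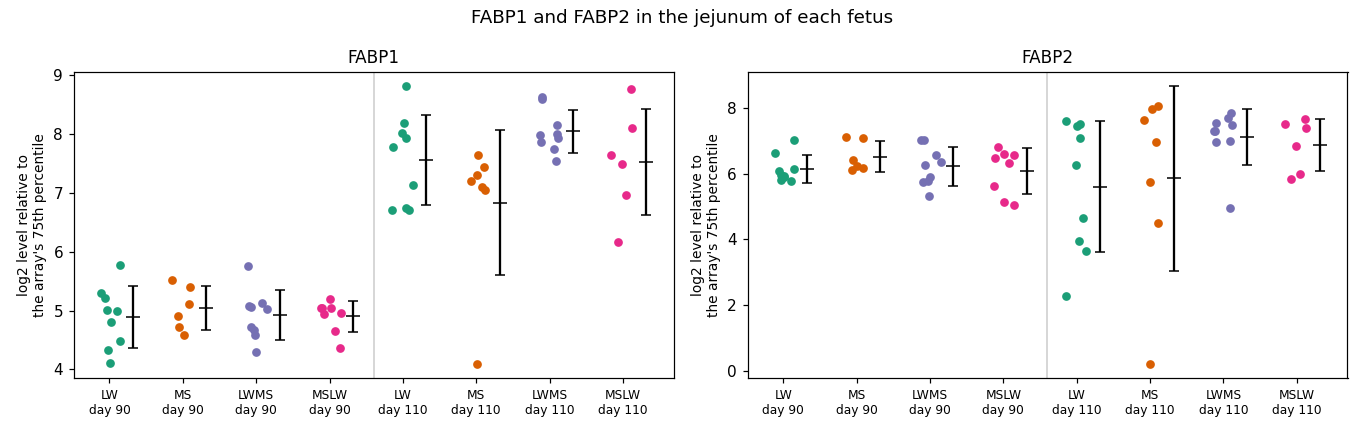
Levels of FABP1 (left) and FABP2 (right) in each fetus, by genotype and day of gestation. The vertical axis is the log2 level after subtraction of the array's 75th percentile, each point is 1 fetus, and black bars give the mean and SD of the group. FABP1 lies between 4.12 and 5.77 at day 90 and above 6 in 30 of 31 fetuses at day 110, while FABP2 spreads downward at day 110 in LW and MS.

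FABP2, the intestinal fatty acid binding protein, did not pass the threshold with age, and its values at day 110 ran from the lowest to the highest of all. At day 90 the low, median and high were 5.79, 5.96 and 7.03 in LW, 6.12, 6.33 and 7.12 in MS, 5.34, 6.27 and 7.04 in LWMS, and 5.05, 6.39 and 6.82 in MSLW. At day 110 they were 2.28, 6.27 and 7.62 in LW, 0.20, 6.95 and 8.05 in MS, 4.97, 7.32 and 7.84 in LWMS, and 5.84, 7.12 and 7.67 in MSLW. The SD within a group was between 0.42 and 0.70 at day 90, and at day 110 it was 2.01 in LW, 2.81 in MS, 0.86 in LWMS and 0.80 in MSLW. Of the 31 fetuses of day 110, 15 lay above the highest fetus of day 90 and 7 lay below the lowest. The difference between days was 0.13 ± 0.33 over the 4 genotypes (adjusted p = 0.799, 95% interval -0.54 to 0.79), with values of -0.53 in LW, -0.66 in MS, 0.90 in LWMS and 0.80 in MSLW, none of which passed. The direction in MS rested on fetus 632, without which the value was 0.28, and the value over the 4 genotypes was then 0.36 ± 0.27 (adjusted p = 0.288). No neighbours in the order of the 8 group means differed by more than the larger SD. The other 2 probes gave 0.20 and 0.21 for the difference between days. Within slides FABP2 was higher at day 110 on 4 of 8.

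Most of the fetuses with little FABP2 at day 110 also had low levels of the markers of differentiated enterocytes. This list held ALPI, LCT, ANPEP, SI, DPP4 and MGAM, the enzymes of the brush border that digest sugars, peptides and phosphate esters, and all 6 were tested. Between days, 5 of the 6 rose and ANPEP fell by 0.59. The mean level of the 6 markers had a high of 1.06 at day 90, and 7 of 31 fetuses at day 110 were at or below it, 4 of 9 LW and 3 of 7 MS. In LW these were fetus 557 (marker level 0.56, FABP2 4.66), fetus 559 (0.16 and 3.96), fetus 572 (0.24 and 3.65) and fetus 575 (-0.71 and 2.28). In MS they were fetus 623 (0.81 and 4.49), fetus 627 (1.03 and 5.75) and fetus 632 (-1.94 and 0.20). Of the 7 fetuses with FABP2 below the range of day 90, 6 were among these 7, and the other was LWMS fetus 609, with the lowest marker level of its group, 1.23.

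Markers of the epithelium as a whole were not low in these fetuses. Their list held 8 genes, of which EPCAM, CDH1, KRT8, KRT18 and KRT19 were measured, and their mean level was 4.10 to 4.44 in the 4 LW fetuses and 4.32 to 4.81 in the 3 MS fetuses, within or above the 3.53 to 4.46 of day 90. The mean level of the 6 smooth muscle markers was 5.34 to 5.68 in those LW fetuses and 4.43 to 4.96 in the other 5. In MS it was 5.15 to 5.62 in those fetuses and 4.64 to 4.91 in the others of day 110. LWMS fetus 609 had 5.39, the highest of its group. Of the other marker lists, none of 6 endothelial and none of 4 adipocyte genes were called with age, 1 of 6 smooth muscle and 1 of 5 proliferation genes were lower, 1 of 6 macrophage genes was higher, and both red cell genes measured were lower, where 13.8% of all probes were called. The part of these differences in the FABP1, FABP2 and NR1H4 values was not tested.

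Beyond the means of the groups, FABP1, FABP2 and NR1H4 varied together from fetus to fetus at day 110. Relations were computed between all 15 pairs of the 6 genes on each day, 30 in all, with 100000 permutations within genotypes. At day 110, FABP2 and NR1H4 had r = 0.95 and Spearman's rho = 0.92 over 31 fetuses (permutation p = 1e-05 for both, the smallest that these can give, adjusted p = 0.0003), and r was 0.92 without the 2 fetuses farthest from the median of FABP2 and 0.95 with slide means removed. FABP1 and FABP2 had r = 0.79 and rho = 0.64 (permutation p = 5e-05 and 0.00033, adjusted p = 0.0005 and 0.00285), with r = 0.63 without the 2 farthest fetuses and 0.81 with slide means removed. FABP1 and NR1H4 had r = 0.71 and rho = 0.62 (permutation p = 0.00031 and 0.00038, adjusted p = 0.00232 and 0.00285), with r = 0.73 with slide means removed, but the adjusted p was 0.0532 without the 2 farthest fetuses (r = 0.58). At day 90 only FABP2 and NR1H4 passed, with r = 0.71 and rho = 0.68 over 32 fetuses (permutation p = 4e-05 and 0.00017, adjusted p = 0.0005 and 0.00255), and r was 0.67 both without the 2 farthest fetuses and with slide means removed. The other relations had adjusted p-values of 0.083 and above, and those of FABP6, CD36 and SLC10A2 were all among them. With slide means removed, FABP6 and SLC10A2 passed at day 90 (r = 0.50, adjusted p = 0.0376), where r was 0.21 with slide means kept.

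The same deviations were set against the mean level of the 6 enterocyte markers, 12 relations chosen after the values were seen. At day 110, r was 0.80 for FABP1, 0.95 for FABP2 and 0.88 for NR1H4, with rho of 0.64, 0.86 and 0.80 (permutation p of 0.00037 or less, adjusted p of 0.00148 or less), and without the 2 fetuses farthest from the median r was 0.61, 0.88 and 0.78. FABP6, CD36 and SLC10A2 had r between -0.28 and -0.15. At day 90 no relation with the markers passed, with r of -0.33 for FABP1, 0.37 for FABP2 and 0.05 for NR1H4. With the authors' values for the gene alone, and the marker mean unchanged, those of FABP1 (r = -0.41, adjusted p = 0.0478) and FABP2 (r = 0.52, adjusted p = 0.048) passed at day 90.

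**Figure D2:**
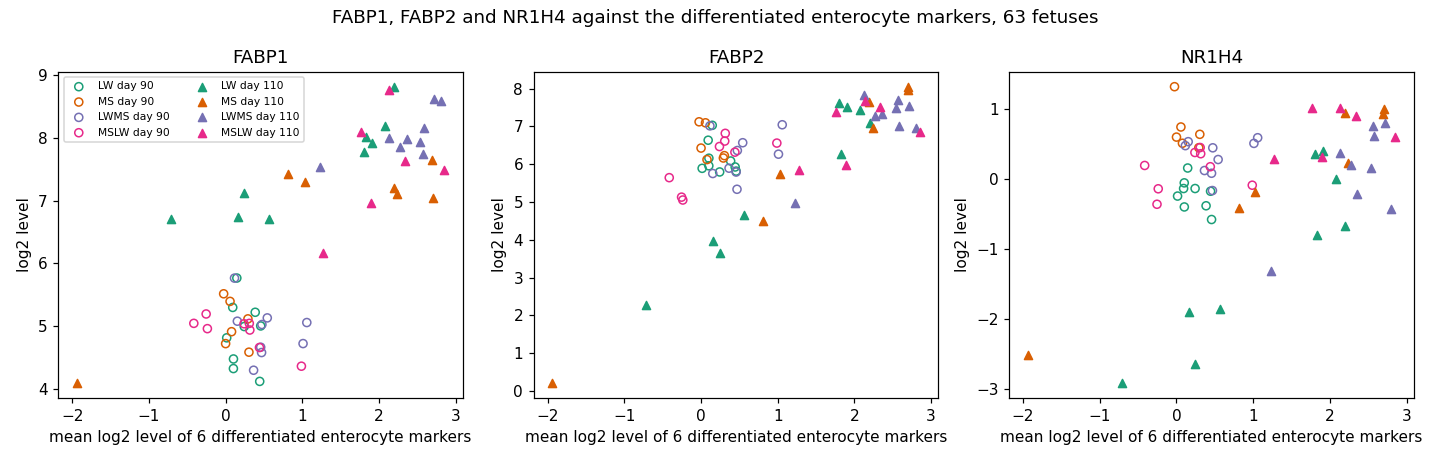
Levels of FABP1, FABP2 and NR1H4 in each of 63 fetuses (vertical axes, log2 after subtraction of the array's 75th percentile) against the mean log2 level of 6 differentiated enterocyte markers (horizontal axes). Open circles are day 90, filled triangles are day 110, and colours are genotypes. The day 110 fetuses with marker levels under 1.06 are all LW or MS, and most of them lie low in FABP2 and NR1H4.

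Genes outside the set were named for the likeness of their pattern to FABP1 over all 63 fetuses. They were EGLN3 (r = 0.92), a prolyl hydroxylase of the oxygen sensing pathway, MFSD2A (r = 0.92), a transporter of lysophospholipids, and SMPDL3B (r = 0.91), a lipid phosphodiesterase. Within days the likeness was lower, and r was 0.23 to 0.35 among the fetuses of day 90 and 0.72 to 0.78 among those of day 110. For members not called with age the same measure was taken after their values were seen. FABP2 was most like MME, MTTP and APOA4 (r of 0.96 each), a brush border peptidase, the protein that loads lipid onto chylomicrons and an apolipoprotein of chylomicrons. NR1H4 was most like VNN1 (r = 0.91), a pantetheinase, then RAB42 and CLCN5 (r = 0.89 each).

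FABP6, the ileal bile acid binding protein, had the widest range of the set. At day 90 its low, median and high were -6.07, -2.35 and 0.60 in LW, -1.38, 0.34 and 1.96 in MS, -3.95, -0.83 and 1.99 in LWMS, and -5.29, -1.25 and 0.15 in MSLW. At day 110 they were -6.40, -3.15 and 0.14 in LW, -5.81, -3.77 and 3.56 in MS, -5.62, -5.46 and 1.14 in LWMS, and -4.30, -2.16 and 2.40 in 5 MSLW fetuses, the spot of fetus 851 having been set to missing as an outlier spot. The probe was well above background on 53 of 63 arrays, and the lowest values are near the floor of the array, where the size of a difference is uncertain. Every group spanned over 3 units, the ranges of all 8 groups overlapped, and no neighbours in the order of their means differed by more than the larger SD. LWMS at day 110 overlapped with MS and LWMS at day 90 and with MSLW at day 110 only through fetus 874.

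In LWMS, FABP6 was 3.69 ± 1.07 lower at day 110 (adjusted p = 0.00993), with 8 of 9 fetuses between -5.62 and -4.57 and fetus 874 at 1.14. This was the second gene of the set called in LWMS. The call stands at the threshold. It held in 2 of the 3 FABP6 probes, in 20 of 63 fits that each left out 1 fetus, and it was lost under 7 alternatives, with differences of -2.15 to -3.69 there. Over the 4 genotypes the difference was -1.54 ± 0.59 (adjusted p = 0.0327, not past the threshold), and it was -1.77 ± 0.57 (adjusted p = 0.00927) without MS fetus 632, which had the highest FABP6 of all, 3.56. The difference was -0.66 in LW, -2.24 in MS and 0.43 in MSLW, none called. On 7 of the 8 slides FABP6 was lower at day 110.

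Fetuses of an MS sire had 1.56 ± 0.59 more FABP6 than those of an LW sire, with the same direction on all 8 slides (differences of 0.26 to 4.95), but the adjusted p was 0.105 (limma). A block for the slide gave 0.0258 (1.96 ± 0.59), and it was 0.0468 without LWMS fetus 874 (1.74). Between the pure breeds at day 90, MS was 2.85 ± 1.20 higher than LW (adjusted p = 0.167). After the values were seen, the genes most like FABP6 over the fetuses with a value were read as for FABP1. They were GP2 (r = 0.82), known from the M cells over lymphoid follicles, CR2 (r = 0.79), the complement receptor of B cells and follicular dendritic cells, and ELL3 (r = 0.74), an elongation factor.

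SLC10A2, the transporter that takes up bile acids at the brush border, was near background. Its brighter probe, shown above, was well above background on 48 of 63 arrays, with levels between -5.50 and -3.26 at day 90 and between -5.14 and -2.82 at day 110. The other probe was well above background on 6 of 63 arrays and was not tested. The difference between days was -0.05 ± 0.12 (adjusted p = 0.776, 95% interval -0.29 to 0.19), and its sign turned under quantile normalization (0.04) and normexp correction (0.06). In no comparison was SLC10A2 called. The 8 group means lay between -4.59 and -4.11, and no neighbours in their order differed by more than the larger SD. The array files give a human transcript as the source of the brighter probe.

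NR1H4, the bile acid receptor, was higher in fetuses of an MS sire on the average over sow breeds and days. At day 90 its low, median and high were -0.58, -0.18 and 0.16 in LW, 0.45, 0.62 and 1.32 in MS, -0.17, 0.45 and 0.59 in LWMS, and -0.36, 0.18 and 0.45 in MSLW. The LW and MS fetuses of day 90 did not overlap, and the means of the crosses lay between theirs. At day 110 the low, median and high were -2.92, -0.80 and 0.41 in LW, -2.52, 0.23 and 0.996 in MS, -1.31, 0.20 and 0.80 in LWMS, and 0.28, 0.75 and 1.02 in MSLW. Of the 31 fetuses at day 110, 8 lay below the whole range of day 90, and none lay above it. In the order of the 8 group means, the 1 gap that was larger than the SD of both neighbours was that between MSLW at day 110 and LWMS at day 90.

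The level of NR1H4 with an MS sire was 0.61 ± 0.18 above that with an LW sire, or 1.52-fold (adjusted p = 0.0263), where 6.95% of all probes were called at an adjusted p under 0.05, and it was the only gene of the 6 called. All 3 probes were called (0.61 to 0.72), and the call held in all 63 fits that left out 1 fetus. It was lost with median centring (0.55 ± 0.20, adjusted p = 0.0964). With LW sows the group means were 0.12 in MSLW and -0.22 in LW at day 90, and 0.69 and -1.115 at day 110. With MS sows they were 0.71 in MS and 0.32 in LWMS at day 90. At day 110 these were -0.005 and 0.105, in the other direction. The MS mean there includes fetus 632 at -2.52, while the other MS fetuses lay between -0.416 and 0.996. The medians, 0.23 in MS and 0.20 in LWMS, were not in the other direction. Within slides the difference was higher for the MS sire on 6 of 8, with a range of -0.49 to 2.10. In its interaction with age no probe of the array passed (0%, with 718 of 40515 at an unadjusted p under 0.05, limma), and for NR1H4 the difference between days in the effect of the sire was 0.48 ± 0.36.

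By the breed of the sow, no gene of the 6 was called by its brightest probe, where 16% of all probes were. NR1H4 was 0.41 ± 0.18 higher with an MS sow (adjusted p = 0.109), and this passed without MS fetus 632 (0.52 ± 0.16, adjusted p = 0.0146). No gene of the 6 was called for a change with age in the effect of the sow, and 0.388% of all probes were. MS exceeded LW in NR1H4 by 0.93 ± 0.37 at day 90 (adjusted p = 0.137) and by 1.11 ± 0.36 at day 110 (adjusted p = 0.0324), with neither past the threshold of 0.01, and the value at day 110 was 1.53 ± 0.32 (adjusted p = 0.000648) without fetus 632. It also passed without LW fetus 852 or 854 (1.30 each, adjusted p = 0.00956 and 0.00914). The SEs come from a spread shared by all 8 groups. The SD of NR1H4 was 0.22 in LW and 0.32 in MS at day 90, and 1.265 and 1.248 at day 110. The SE at day 90 therefore includes the wider spread of day 110, though LW and MS did not overlap at day 90. None of the 6 genes was called between the breeds on either day, where 3.58% of all probes were at day 90 and 5% at day 110. With age, NR1H4 was lower by 0.32 ± 0.18 over the 4 genotypes (adjusted p = 0.164) and on 7 of 8 slides, and its other probes gave -0.38 and -0.11. By genotype the value was -0.90 ± 0.33 in LW (adjusted p = 0.0694), -0.715 in MS and -0.21 in LWMS. In MSLW it was 0.57, the other direction, and none was called. The 4 LW fetuses of day 110 with low enterocyte markers were also the 4 lowest LW fetuses in NR1H4, at -1.86, -1.90, -2.65 and -2.92. These comparisons share fetuses and are not independent of one another.

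**Figure D3:**
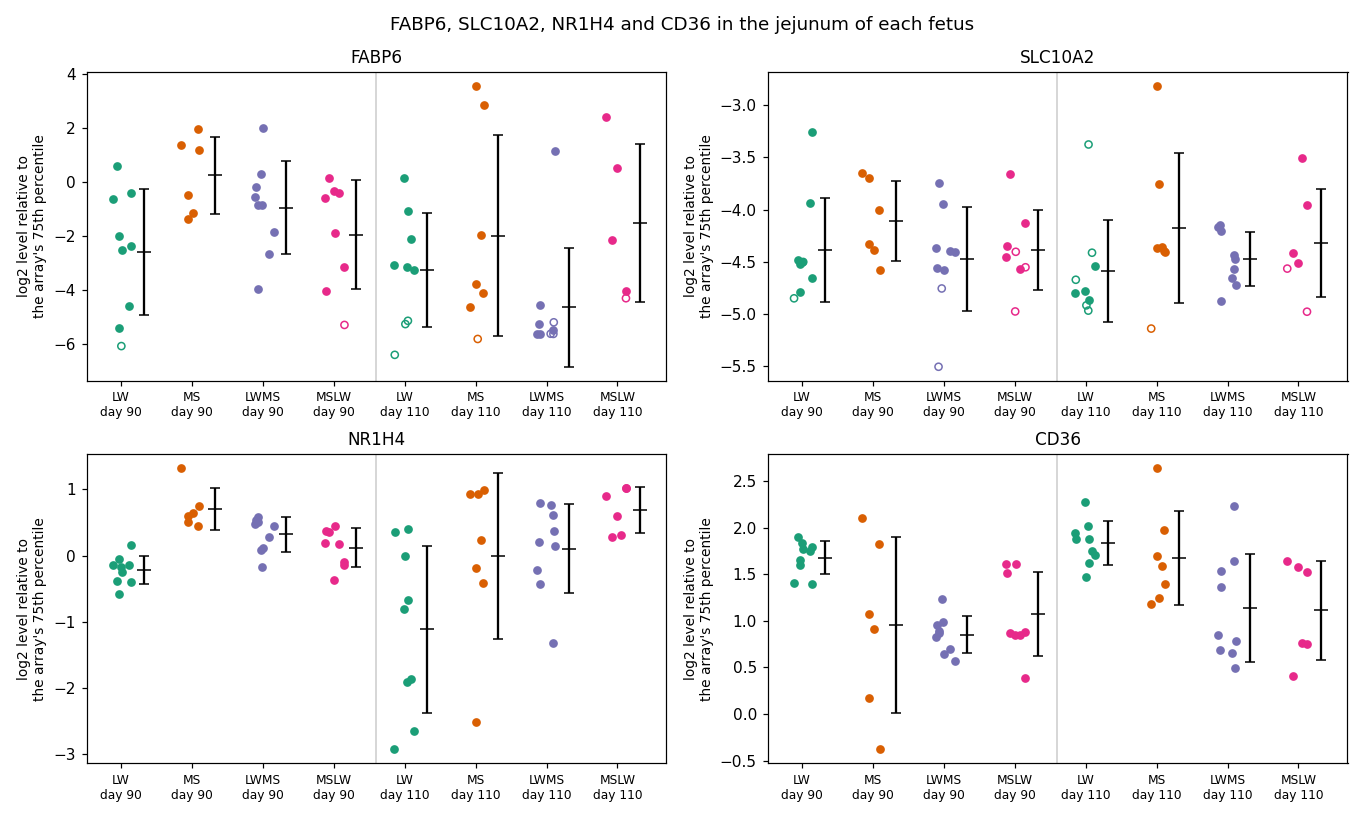
Levels of FABP6, SLC10A2, NR1H4 and CD36 in each fetus, by genotype and day, on the same log2 scale (vertical axes). Filled points were well above background and open points were not, and black bars give the mean and SD of the group. FABP6 spans from -6.40 to 3.56, SLC10A2 has open points in most groups, and LW lies below MS in NR1H4 at day 90 without overlap.

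CD36, a scavenger receptor that takes up fatty acids, was read differently by its probes. The brightest probe had a low, median and high of 1.40, 1.75 and 1.90 in LW, -0.38, 0.99 and 2.10 in MS, 0.57, 0.86 and 1.23 in LWMS, and 0.39, 0.87 and 1.61 in MSLW at day 90. At day 110 these were 1.47, 1.88 and 2.28 in LW, 1.18, 1.58 and 2.64 in MS, 0.50, 0.84 and 2.23 in LWMS, and 0.41, 1.15 and 1.64 in MSLW. By this probe the LW means, 1.68 and 1.84, were above those of the crosses on both days, which were 0.85 to 1.14. It was 0.27 ± 0.12 lower with an MS sow (adjusted p = 0.119, and 0.0491 without MS fetus 524) and lower on all 8 slides, while the other 4 probes were 0.16 to 0.34 higher with an MS sow, and 2 of them passed, A_72_P441753 (0.34 ± 0.08, adjusted p = 0.00227) and A_72_P393078 (0.27 ± 0.08, adjusted p = 0.0212). These 2 were the only probes of the 19 called for the breed of the sow. The probes also differed in sign for the breed at both days and for the sire, so no direction by genotype can be given for CD36. For age, all 5 probes were higher at day 110, by 0.20 to 0.30, and none reached a difference of 0.5.

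**Figure D4:**
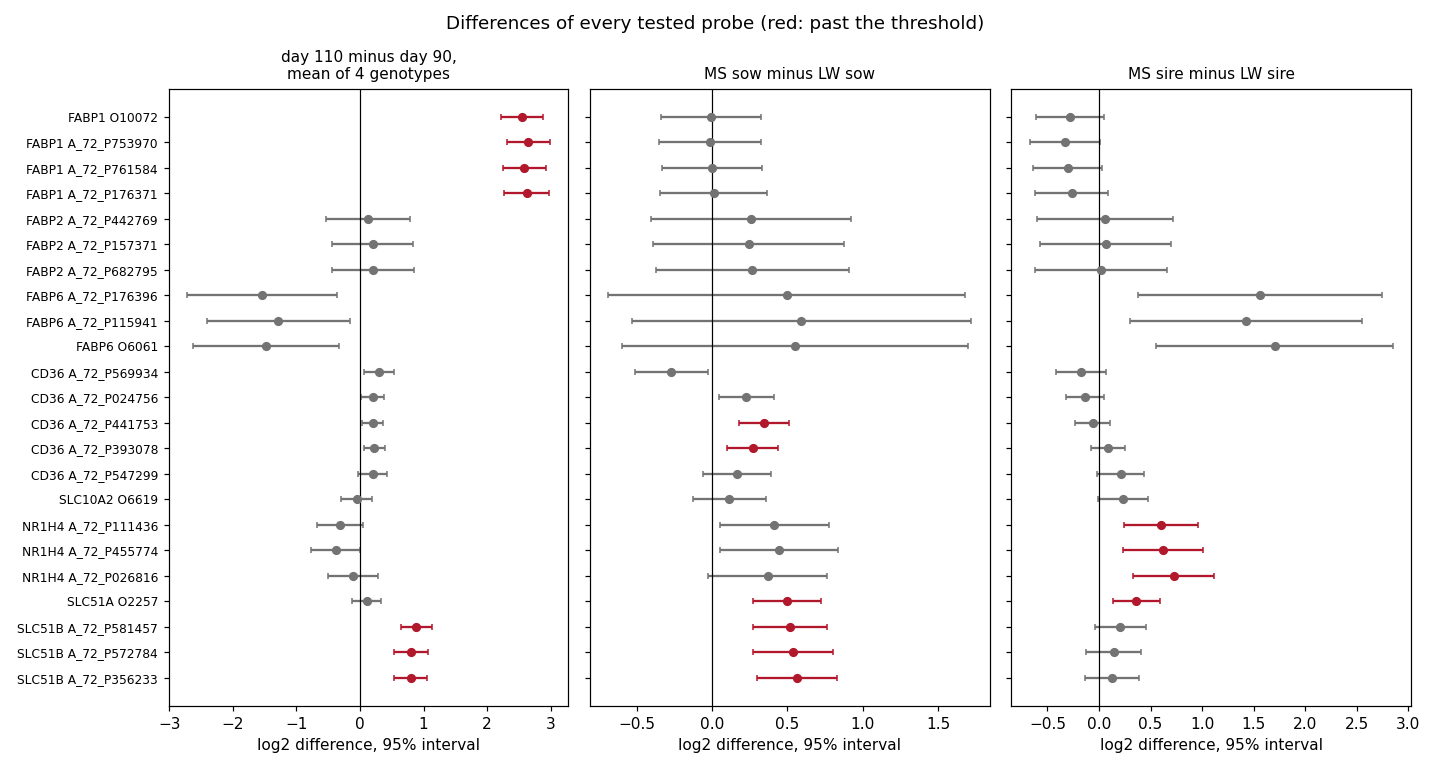
Log2 differences of the 19 tested probes of the set and of the 4 probes for SLC51A and SLC51B, with 95% intervals (horizontal axes), for age (left), breed of the sow (middle) and breed of the sire (right). Red points passed the threshold of the comparison. The 4 FABP1 probes agree at 2.55 to 2.65 for age, and the first CD36 probe lies on the other side of 0 from the other 4 for the sow.

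SLC51A and SLC51B, the subunits of the transporter that exports bile acids from the enterocyte, were found by the older name Ostalpha (1 probe) and by a RefSeq accession of SLC51B (3 probes under a LOC name, of which 2 shared 19 bases in a row). All SLC51A values rest on that 1 probe, whose systematic name is a protein entry and not a transcript, and its species of origin was not checked. SLC51B was lower at day 90, with a low, median and high of 2.62, 3.18 and 4.27 in LW, 3.95, 4.19 and 4.46 in MS, 3.16, 3.79 and 4.33 in LWMS, and 2.996, 3.44 and 3.84 in MSLW. At day 110 they were 3.39, 4.02 and 4.94 in LW, 2.69, 4.60 and 5.14 in MS, 4.28, 4.95 and 5.18 in LWMS, and 3.91, 4.69 and 5.39 in MSLW. It rose by 0.89 ± 0.12 over the 4 genotypes, or 1.85-fold (adjusted p = 3.38e-08), and all 3 probes were called. By genotype it rose in LW (0.96 ± 0.23, adjusted p = 0.00258), LWMS (1.103 ± 0.23, adjusted p = 0.000257) and MSLW (1.18 ± 0.26, adjusted p = 0.00124), and the difference in MS was 0.31 ± 0.27 (adjusted p = 0.563). In MS, fetus 632 lay at 2.69 at day 110. The other MS fetuses of that day lay between 4.52 and 5.14, above the MS high of day 90. Leaving out 1 fetus at a time, SLC51B in MS rose by up to 0.61 and was never called. In LW 1 of its 3 probes was called, and the call in MSLW was lost without fetus 476 (1.01, adjusted p = 0.0104). The test of whether genotypes differed in this change did not pass (adjusted p = 0.746).

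Both subunits were higher with an MS sow on the average over sire breeds and days. SLC51B was 0.52 ± 0.12 higher (adjusted p = 0.00207) and SLC51A 0.50 ± 0.11 higher (adjusted p = 0.00116). All fetuses of a litter share the sow, so this comparison lies between litters and these p-values may be too small. With an MS sire at day 110 the means were close, 4.50 in MS and 4.58 in MSLW for SLC51B, and -2.130 and -2.139 for SLC51A. Both MS means are lowered by fetus 632, at 2.69 for SLC51B and -3.24 for SLC51A. The other MS fetuses of that day lay between 4.52 and 5.14 and between -2.29 and -1.62. In the other pairs of groups that shared a sire breed and a day, both means were higher with an MS sow. SLC51A had a low, median and high of -3.24, -2.84 and -2.40 in LW and -2.22, -1.84 and -1.59 in MS at day 90, with no overlap. MS exceeded LW at day 90 by 0.99 ± 0.23 in SLC51A (adjusted p = 0.00301) and by 1.05 ± 0.25 in SLC51B (adjusted p = 0.00429), though 1 of 3 SLC51B probes was called. Both calls were lost when the purebred fetuses were fitted alone and with median centring (adjusted p of 0.0119 to 0.0299). That of SLC51A was also lost without MS fetus 524 or 827 (adjusted p = 0.0122 and 0.0117), and that of SLC51B without any of MS fetuses 524, 532 and 827 and LW fetuses 887 and 895 (adjusted p of 0.0101 to 0.0161). At day 110 MS exceeded LW in SLC51A by 0.73 ± 0.22 (adjusted p = 0.0219), which passed without any of MS fetus 632 and LW fetuses 850 and 852 (adjusted p of 0.00256 to 0.00863). SLC51A was 0.36 ± 0.11 higher with an MS sire (adjusted p = 0.0345), a call that was lost under 6 alternatives (adjusted p of 0.0548 to 0.18) and when any of MS fetuses 524, 407 and 401, MSLW fetuses 738, 476 and 498 and LW fetus 559 was left out (adjusted p of 0.0504 to 0.0667).

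**Figure D5:**
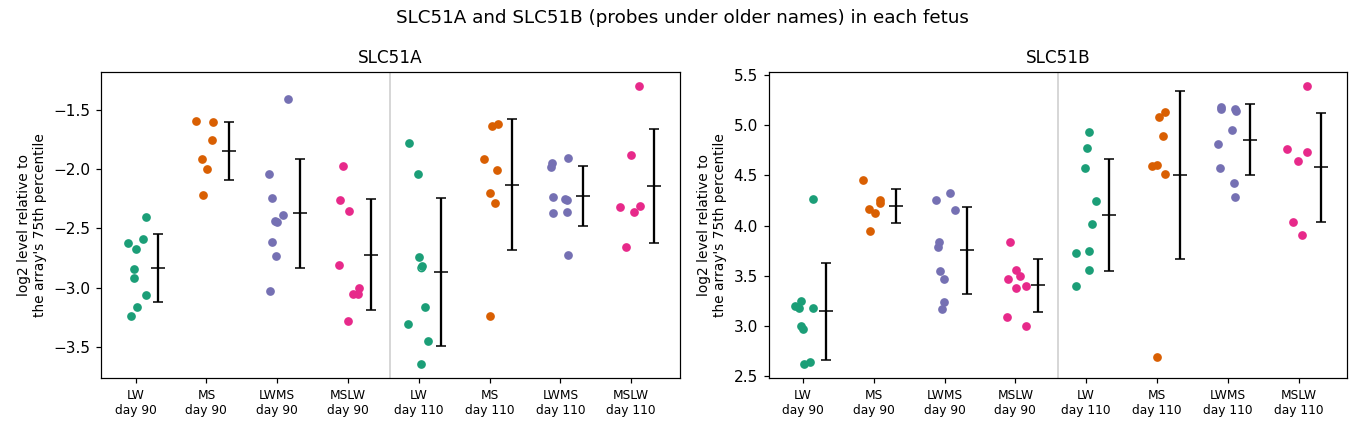
Levels of SLC51A (left, by the probe under an older name) and SLC51B (right, by a probe found through its RefSeq accession), in each fetus by genotype and day, on the log2 scale used above (vertical axes). Points are fetuses, open where not well above background, and black bars give the mean and SD. At day 90 LW lies below MS in SLC51A without overlap. SLC51B was called higher at day 110 in LW, LWMS and MSLW, and in MS fetus 632 lies apart, below the others.

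Other genes of the same pathways were read by their brightest tested probe, against the 13.8% of all probes called with age. Mean levels are given for some dim probes, where the size of a difference is uncertain. Of 19 further genes of fatty acid uptake and activation, 17 were tested, 3 rose and 3 fell with age, with a median difference of 0.30. SLC27A2, an acyl-CoA synthetase for very long-chain fatty acids, rose by 4.07 ± 0.38 (adjusted p = 3.84e-13). Its mean level was dim at day 90, -4.31, and was -0.09 at day 110. FABP7, the brain type binding protein, fell by 1.51 ± 0.14 (adjusted p = 1.25e-13), to a dim mean level of -4.19. SLC27A3 and SLC27A5 fell by 0.83 and 0.82, and SLC27A5 was dim on both days, at -4.81 and then -5.62. By the breed of the sow, 5 were higher and 1 lower with MS, where 16% of all probes were called. The largest was SLC27A2, higher by 1.82 ± 0.38 (adjusted p = 0.000449). FABP3, the heart type binding protein, was 0.97 ± 0.24 higher in MS than LW at day 90 (adjusted p = 0.00651).

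Of 14 genes that rebuild triglycerides, 10 were tested, none rose and 1 fell with age, with a median of -0.18. This was PLIN2, a coat protein of lipid droplets, which fell by 0.94 ± 0.10 (adjusted p = 1.46e-11). By the breed of the sow, 2 of the 10 were higher and 1 lower with MS. LPIN1, a phosphatidate phosphatase, was 0.65 ± 0.15 lower (adjusted p = 0.00187). AGPAT1, an acyltransferase named after its values were seen, was 0.39 ± 0.07 higher (adjusted p = 5.13e-05), and LPIN3, a relative of LPIN1, was 0.30 ± 0.06 higher (adjusted p = 0.000594). LPIN3 was also 0.62 ± 0.13 higher in MS than in LW at day 110 (adjusted p = 0.000497).

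Of 19 further genes of bile acid handling, 12 were tested, 4 rose and 1 fell with age, with a median of 0.35. ABCB11, the bile salt export pump, rose by 4.09 ± 0.41 (adjusted p = 3.41e-12) and CYP3A29, a cytochrome P450 of the pig, by 3.01 ± 0.28 (adjusted p = 1.88e-13). CYP27A1, a hydroxylase of bile acid synthesis, rose by 1.36 ± 0.19, and ABCC3, an exporter of organic anions, by 1.25 ± 0.11. The gene that fell was SLC27A5, the bile acyl-CoA synthetase, counted in both lists. By the breed of the sow, 1 was higher and 1 lower with MS, ABCB11 by 1.20 ± 0.41 (adjusted p = 0.037) and SLC27A5 by -0.68 ± 0.20 (adjusted p = 0.0159). SULT2A1, a sulfotransferase of steroids and bile acids, was 1.74 ± 0.44 lower in MS than LW at day 110 (adjusted p = 0.00457). Its mean level was dim in MS, -4.56, and was -2.82 in LW.

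Of 24 transcriptional regulators, 18 were tested, 2 rose and 3 fell with age, with a median of -0.04. VDR, the vitamin D receptor, rose by 1.81 ± 0.33, between dim mean levels of -5.99 and -4.16. PPARGC1A, a coactivator of mitochondrial genes, rose by 1.05 ± 0.09. THRB, a thyroid hormone receptor, fell by 1.39 ± 0.15 and NR5A2, a nuclear receptor of bile acid and steroid pathways, by 0.70 ± 0.08. By the breed of the sow 4 were higher and 1 lower, and HNF4A, a nuclear receptor of the gut and liver epithelium, was 0.33 ± 0.10 higher with MS (adjusted p = 0.0164). GATA4, a transcription factor of the proximal small intestine, was 2.34 ± 0.54 lower in MS than LW at day 110 (adjusted p = 0.00196). Its mean level was dim in MS, -3.91, and was -1.57 in LW.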

How the data were processed

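Porcine 1-colour arrays held jejunum RNA of 63 male fetuses, with 7 or 8 arrays on each of 8 slides, and fetuses were grouped by the sample labels. The authors deposited the linear spot intensity that Agilent Feature Extraction 10.10.1.1 gave, and log2 values of 39446 probes, which by comparison are quantile normalized log2 median signals and served as an alternative. Here the 75th percentile of each array was subtracted from the log2 of the background-subtracted intensity. Of 61625 spots, 1319 were controls and were left out, outlier spots were set to missing, and no spot was saturated. Background subtraction leaves the size of differences between dim spots uncertain. The 8 group means were fitted with limma 3.58.1 (R 4.3.3) and p-values, two-sided, were adjusted by the Benjamini-Hochberg method. Differences are day 110 minus day 90 and MS minus LW. Calls for age and breed needed an adjusted p no higher than 0.01 and a log2 difference of 0.5 or more in size, the F test at 0.01, and sow, sire and all interactions at 0.05.

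The study fitted a random sow effect, which is not a term here, so litter mates count as independent and p-values may be too small. Litter mates share the sow and the day, so comparisons of sow breeds and of days lie between litters. A gene was named by its brightest tested probe. From each pathway list at most 4 genes called with age and 2 called by sow or breed were named, and for members called with age the 3 genes of highest Pearson r. Members, lists and tests were chosen with earlier results of these data known. The fit was tested on simulated data. The number of arrays limits the precision. Alternatives were the authors' values, median centring, quantile normalization, normexp (offset 50), other filters, purebred fetuses alone, an ordinary linear model, array weights, a block for the slide, and leaving out fetuses 484 and 469. Leaving out each fetus in turn, and fetus 632, was chosen after the values were seen.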

Additional observations from a re-analysis of the deposited data

Results flagged for a closer look

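Over 64 combinations of a gene (the 6 of the set, SLC51A and SLC51B) and a group, 9 had a fetus far from the others of its group, where chance gives about 3.2 (5%). The measure was the gap to the nearest fetus over the range of the group, against Dixon's 95% limit. Of the 9, 4 were the same animal, MS fetus 632 at day 110. Its FABP1 level was 4.09 where the other 6 lay between 7.05 and 7.65, its NR1H4 was -2.52 against -0.416 to 0.996, its SLC51A was -3.24 against -2.29 to -1.62, and its SLC51B was 2.69 against 4.52 to 5.14. It also had the lowest mean level of the enterocyte markers of all fetuses, -1.94, and the highest FABP6, 3.56.

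The other 5 were single genes. FABP2 was 4.97 in LWMS fetus 609 at day 110 against 6.95 to 7.84 in the others. FABP6 was 1.14 in LWMS fetus 874 at day 110 against -5.62 to -4.57. SLC10A2 was -3.38 in LW fetus 469 at day 110 against -4.97 to -4.41, and this spot was not well above background, on the array with the lowest share of such probes, 51.2%. NR1H4 was 1.32 in MS fetus 524 at day 90 against 0.45 to 0.74. SLC51B was 4.27 in LW fetus 484 at day 90 against 2.62 to 3.25.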

How the results depend on the processing

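The count of genes called among the 6 was 1 for age over all genotypes, and it was 2 without fetus 632, FABP6 joining FABP1. With array weights, 2 genes were called in place of 1 for age in LW (FABP1 and NR1H4) and for age in MS (FABP1 and CD36), 2 in place of 0 between breeds at day 90 (CD36 and NR1H4) and at day 110 (FABP2 and NR1H4), 3 in place of 0 for the sow (FABP2, CD36 and NR1H4), and 1 in place of 0 for the interaction of age and genotype (NR1H4). For age in MS, purebred fetuses alone gave 0. For age in LWMS the count was 1 in place of 2, FABP1 alone, with the authors' values, normexp, quantile normalization, median centring, no filter, array weights and the ordinary linear model. For the sire, median centring gave 0 and the slide as a block 2 (FABP6 and NR1H4). Without fetus 632, 1 gene (NR1H4) was called for the breed at day 110 and for the sow. Over the fits that each left out 1 fetus, the count was 1 to 2 for age over all genotypes and for age in LWMS, 0 to 1 for the breed at day 110 and for the sow, and 1 to 2 for the sire. In all, 162 of 186 recomputed counts were within 1.5 times the reported count. These include reported counts of 0 that stayed 0, as for the interaction of sire and age, where no probe of the array was called. For such comparisons the tally says little about how firm the results are.

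Signs turned only for differences that were not called. Leaving out 1 fetus turned FABP2 with age in MS (-0.66, up to 0.284), FABP6 with age in MSLW (0.43, down to -0.552) and FABP2 between breeds at day 110 (0.26, down to -0.16), among others. SLC10A2 with age, -0.05, was 0.0642 with normexp and 0.0356 with quantile normalization, and in LWMS, 0.00308 as reported, it was -0.0444 with normexp and -0.0473 with the slide as a block. FABP1 by sow, -0.01, was 0.0939 with median centring, 0.0351 with the slide as a block, 0.0807 with array weights, 0.0595 without fetuses 484 and 469, and 0.107 without fetus 632. Median centring moved the median sow difference of all probes from 0.02 to 0.12, and 4857 of 6547 called probes were then higher with MS, against 2940 of 6467. No paired analysis was possible because fetus numbers are not shared between groups and the labels used here do not tie fetuses to sows. The cause of these changes was not tested.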

Other observations

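FABP6 and GATA4 were set against each other after their values were seen, since GATA4 differed between the breeds at day 110. Beyond the group means, r was -0.03 at day 90 (rho = -0.07, 31 fetuses, permutation p = 0.894) and -0.23 at day 110 (rho = -0.10, 30 fetuses, permutation p = 0.286), with adjusted p of 0.572 or more for r and of 0.731 for rho over the 2 relations. Without the 2 fetuses farthest from the median of FABP6, r was 0.000162 and -0.00798. No relation was detected with these numbers of fetuses.

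Among the red cell markers, HBB and AHSP were measured, and both fell with age, by 1.68 ± 0.28 and 1.80 ± 0.23. Their mean level was lowest in LWMS fetus 633 at day 110, -3.77.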
